A study of Mus musculus with 12 samples.

Results

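Npw, Gdpd3, Doc2g, Ttf2, Arf5 and Ntf3 are 6 genes that were picked, out of the 21638 in the deposited count table, because they differ most between the libraries labelled Ezh2 ECKO and the wild-type (WT) libraries. The members were thus selected on their measured counts in these 6 libraries. They are described here over all 4 genotype groups, with the question of which of them also differ in Hdac2 ECKO or in beta-catenin GOF. RNA was sequenced from cerebral cortical endothelium of adult mice, collected by cell sorting as CD31+, CD41- and CD45- cells, with 3 libraries in each group and 12 in all. The group labelled Ezh2 ECKO (below, the Ezh2-labelled group or libraries) came from Ezh2lox/lox mice, Hdac2 ECKO from Hdac2lox/lox mice and beta-catenin GOF from Ctnnb1lox/lox mice, in which the labels describe constitutive activation of beta-catenin. All 3 mutants carried Cdh5CreERT2, a Cre recombinase that acts in vascular endothelium once tamoxifen is given. They received 5 doses of tamoxifen at 75 mg/kg and were sampled 2 months later. The alleles of the WT mice, and whether they received Cre or tamoxifen, are not given in the labels, and neither are ages beyond adult or whether each library is a separate animal. The p-values below therefore measure only the spread between these libraries, which may be technical.

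Ezh2 encodes the catalytic subunit of Polycomb repressive complex 2, which methylates histone H3 and keeps genes silent, and Hdac2 encodes a histone deacetylase of several corepressor complexes. Beta-catenin, the product of Ctnnb1, carries the Wnt signal to the nucleus and maintains the barrier state of brain endothelium. The 6 genes themselves do unrelated work: Npw and Ntf3 encode secreted ligands, Gdpd3 a lipid enzyme, Arf5 and Doc2g proteins of membrane traffic, and Ttf2 a transcription termination factor.

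The promoter windows of the members are shown because 4 members (Npw, Doc2g, Ttf2 and Arf5) differed from WT both in Hdac2 ECKO and in the Ezh2-labelled group, and because the windows differ in base composition. RefSeq (GRCm38.p6) held windows for 5 of the 6 genes, all but Npw, with 2 start sites for Ntf3. Each window is the 250 bases upstream of the start as the RefSeq table lists it, and only the part outside annotated exons is printed. The strand is that of the gene, and capitals mark every match, on either strand, to CCAAT (read as ATTGG on the other strand), GGGCGG or CACGTG. Neither TATAAA nor TTCCGG was found in any of the 6 windows. No 2 of these motifs overlapped in the printed stretches.
Gdpd3 (chr7:126766164-126766333, plus strand, between genes): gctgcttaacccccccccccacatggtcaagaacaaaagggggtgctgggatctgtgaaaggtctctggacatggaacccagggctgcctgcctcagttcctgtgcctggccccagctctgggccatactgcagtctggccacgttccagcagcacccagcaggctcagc
Ttf2 (chr3:100969664-100969913, minus strand, between genes): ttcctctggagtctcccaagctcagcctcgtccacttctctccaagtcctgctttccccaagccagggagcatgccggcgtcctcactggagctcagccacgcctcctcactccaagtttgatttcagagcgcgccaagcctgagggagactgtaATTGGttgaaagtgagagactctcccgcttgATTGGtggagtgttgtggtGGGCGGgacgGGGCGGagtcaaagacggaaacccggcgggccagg
Arf5 (chr6:28423354-28423559, plus strand, inside an intron of Gcc1 on the opposite strand): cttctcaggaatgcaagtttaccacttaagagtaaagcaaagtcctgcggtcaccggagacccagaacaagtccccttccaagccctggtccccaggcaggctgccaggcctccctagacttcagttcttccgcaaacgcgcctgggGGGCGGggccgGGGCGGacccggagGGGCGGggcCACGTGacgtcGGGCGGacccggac
Ntf3, upstream start (chr6:126166911-126166994, minus strand, between genes): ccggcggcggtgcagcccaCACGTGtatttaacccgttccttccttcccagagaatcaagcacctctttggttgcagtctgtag
Ntf3, internal start (chr6:126164961-126165210, minus strand, inside an intron of Ntf3): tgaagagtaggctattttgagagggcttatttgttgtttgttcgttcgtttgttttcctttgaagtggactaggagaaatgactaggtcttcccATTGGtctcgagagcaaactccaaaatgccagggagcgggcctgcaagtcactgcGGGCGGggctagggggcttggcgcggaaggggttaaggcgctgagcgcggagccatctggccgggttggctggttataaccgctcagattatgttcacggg
The counts below cover all 250 bases of each window, printed or not. The Arf5 window held 25 CG dinucleotides and stood at percentile 90.4 of the 32841 RefSeq windows of this length, whose median was 6. A percentile here is the share of windows with as many CG or fewer. The Doc2g window, which lies in an exon of Gm49405 and is not printed, held 0 and stood at percentile 7.86. The count was 6 for Gdpd3, 13 for Ttf2, 11 for the upstream Ntf3 window and 14 for the internal one. Matches to GGGCGG numbered 4 in the Arf5 window and 2 in the Ttf2 window, and 32.7% of all windows held at least 1. Ttf2 also had 2 matches to CCAAT, which 33.9% of windows held, and CACGTG, found in 6.02% of windows, stood in the Arf5 and upstream Ntf3 windows. Both Ntf3 windows held 1 match to GGGCGG, which for the upstream window lies in the stretch not printed. TATAAA was found in 12.4% and TTCCGG in 12% of all windows.

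Library totals ran from 24781070 to 36109975 counts, so 3 counts in a library correspond to between 0.0791 and 0.118 CPM (the usual normalised count, scaled to the library's TMM-adjusted total). Ezh2 stood at 6.75 ± 3.52 CPM in WT and 8.92 ± 3.35 in the Ezh2-labelled libraries (SD, n = 3 each), a log2 difference of 0.40 with an SE of 0.46 (edgeR adjusted p = 0.615). Ezh2 was thus not lower in the libraries that carry its knockout label, which are called by that label throughout. Counts per gene do not separate the floxed exons from the rest, and single exons were not analysed here. Hdac2 was 129 ± 30.1 CPM in WT and 96.5 ± 15.2 in Hdac2 ECKO (edgeR adjusted p = 0.225). It was at a like level in beta-catenin GOF (96.2 ± 10.1) and at 121 ± 17.1 in the Ezh2-labelled group. Ctnnb1 was 654 ± 138 in WT and 583 ± 109 in beta-catenin GOF (edgeR adjusted p = 0.962). Its means were higher in Hdac2 ECKO (1156 ± 271) and in the Ezh2-labelled group (1101 ± 302), where it did not pass against WT (edgeR adjusted p = 0.0711 and 0.131). None of 10 endothelial marker genes was at 0 in any group, and their summed level ran from 6793 to 9763 CPM. The CD41- and CD45- gates should remove platelets and leukocytes, and no red cell marker is named among the gates. A list of 7 platelet and erythroid genes, which includes haemoglobin genes, summed to between 36121 and 61388 CPM in WT. This was above every other library (405 to 35400 CPM), and the platelet and erythroid parts of the sum were not separated. In bulk libraries fewer cells of a type and less RNA per cell cannot be told apart.

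All 6 members averaged 10 or more counts per library and so were among the 12577 genes tested. A member that passed only through the group where it is high had to differ, so the 6 of 6 is no result in itself. In the contrast that chose them, Npw, Gdpd3, Doc2g and Ttf2 were higher and Arf5 and Ntf3 lower in the Ezh2-labelled libraries than in WT. All 6 passed the threshold there (an edgeR adjusted p under 0.05), against 1.03% of all genes tested (0.342% higher and 0.684% lower), and in all 6 the groups did not overlap, against 21.9% of all genes. These 2 counts restate the choice. Without WT 1 or WT 2 none of the 6 passed (2 genes called in all, with 1836 and 2141 at an unadjusted edgeR p under 0.05), and without Ezh2-labelled library 1 or 3 only Npw and Gdpd3 did (4 and 7 genes in all). All 6 passed without WT 3 (1143 genes) or Ezh2-labelled library 2 (2329 genes). Doc2g and Ttf2 also missed the threshold with median-ratio scaling and with library totals. Among the 43 genes called higher in that contrast Doc2g ranked 2 by fitted fold change, Npw 3, Gdpd3 4 and Ttf2 6. Among the 86 called lower Ntf3 ranked 1 and Arf5 5. These ranks restate the choice as well. Those of Doc2g and Ntf3 rest on a group at 0 counts, where only a bound on the fold change can be given.

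**Figure D1:**
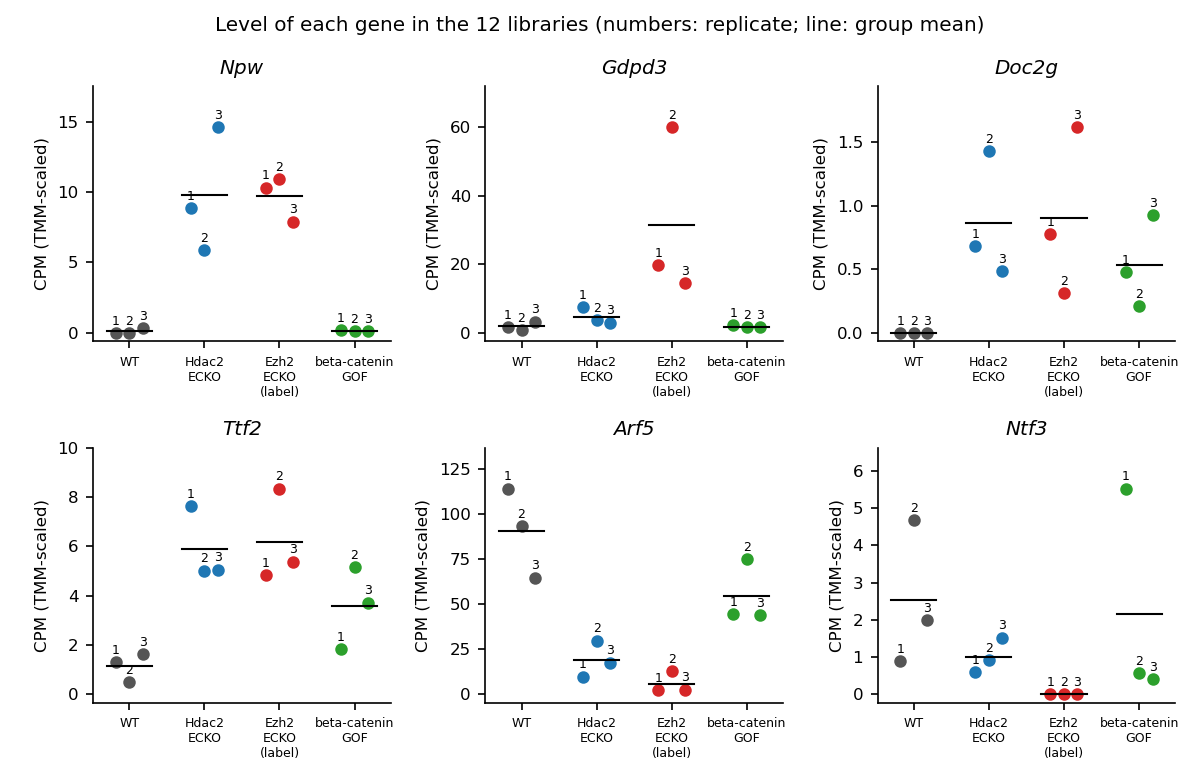
Level of each member in the 12 libraries, 1 panel per gene, in CPM on the vertical axis against genotype group, with 1 numbered point per library and a line at the group mean. Npw is high in all 6 libraries of Hdac2 ECKO and of the Ezh2-labelled group and near 0 in the 6 others, Gdpd3 is highest in the Ezh2-labelled group, and Ntf3 is at 0 in its 3 libraries.

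Npw encodes neuropeptide W, a ligand of the receptor Npbwr1 known from brain circuits of feeding and stress. The gene (ENSMUSG00000071230.6) lies on the minus strand at chr17:24657330-24658457 (GRCm38) and has only 638 exonic bases, shorter than all but 1.03% of the genes tested. Its level was 0, 0 and 0.356 CPM in WT 1 to 3 and 0.205, 0.106 and 0.116 in beta-catenin GOF, the latter from 6, 4 and 4 counts. In Hdac2 ECKO it was 8.85, 5.87 and 14.6 CPM, and in the Ezh2-labelled libraries 10.3, 10.9 and 7.9 CPM. Npw was thus detected at a like level in 6 libraries of 2 genotypes and was at or near 0 in the 6 others, with no overlap between these sets. The fitted log2 difference of the Ezh2-labelled group from WT was 6.34. The receptor gene Npbwr1 had 0 counts in every library, and Npb, which encodes the related ligand neuropeptide B, reached at most 18 counts and was not tested.

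Ntf3 encodes neurotrophin-3, a growth factor of neurons and glia that signals mainly through the receptor TrkC, the product of Ntrk3. The gene (ENSMUSG00000049107.13) spans chr6:126101412-126166910 on the minus strand, with 1714 exonic bases and both start sites printed above. Its level was 0.902, 4.68 and 1.99 CPM in WT, 0.605, 0.913 and 1.52 in Hdac2 ECKO, and 5.52, 0.58 and 0.406 in beta-catenin GOF. All 3 libraries labelled Ezh2 ECKO had 0 counts, while every other library had at least 14. Measured against a floor of 3 counts per library, Ntf3 was at least 23.5-fold lower in the Ezh2-labelled libraries than in WT. The ranges of WT, Hdac2 ECKO and beta-catenin GOF overlapped, and beta-catenin GOF 1 was the highest of all 12 libraries. Of 12 neurotrophin ligands and receptors, 4 were abundant enough to test (Ntf3, Ntrk2, Ntrk3 and Sort1). Ntrk3 was low in every group, at 0.183 ± 0.088 CPM in WT, 1.26 ± 1.6 in Hdac2 ECKO, 0.722 ± 0.802 in the Ezh2-labelled group and 0.649 ± 1.03 in beta-catenin GOF. Ngfr had at most 4 counts in any library, and Sort1, a sorting receptor that also binds neurotrophin precursors, had 13.4 ± 1.22 CPM in WT.

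Gdpd3 encodes a glycerophosphodiester phosphodiesterase with lysophospholipase D activity, which releases lysophosphatidic acid from lysophospholipids. It lies at chr7:126766334-126775649 on the plus strand (ENSMUSG00000030703.8, 2186 exonic bases), and 298 of these bases (13.6%) are shared with Gm9967 on the opposite strand. The level was 1.67, 0.76 and 3.27 CPM in WT, 7.45, 3.65 and 3.01 in Hdac2 ECKO, and 2.25, 1.61 and 1.68 in beta-catenin GOF. The Ezh2-labelled libraries stood above all others, at 19.7, 60 and 14.6 CPM. Here the spread inside the group was wide, with library 2 far above the rest, and the group's mean was 31.4 ± 24.8 CPM against 1.9 ± 1.27 in WT. The fitted log2 difference was 4.05. The lowest of these libraries was above the highest Hdac2 ECKO library.

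Arf5 encodes a small GTPase of the Golgi that recruits coat proteins to budding vesicles. It is the most abundant member per base in WT, at 47.6 CPM per kilobase, followed by Ntf3 (1.47), Gdpd3 (0.869), Npw (0.186) and Ttf2 (0.15), with Doc2g at 0. The gene (ENSMUSG00000020440.13) lies at chr6:28423560-28426602 on the plus strand and shares 313 of its 1907 exonic bases (16.4%) with Gcc1 on the opposite strand. Its level was 114, 93.3 and 64.7 CPM in WT, 44.4, 75 and 44 in beta-catenin GOF, 9.84, 29.9 and 17.7 in Hdac2 ECKO, and 2.33, 13 and 2.58 in the Ezh2-labelled libraries. WT and beta-catenin GOF overlapped, as did Hdac2 ECKO and the Ezh2-labelled group, and a gap separated these 2 pairs. The fitted log2 difference of the Ezh2-labelled group from WT was -3.93. Gcc1, a Golgi protein gene, did not follow: it was 4.44, 8.74 and 6.12 CPM in WT and 12.2, 8.26 and 3.3 in the Ezh2-labelled libraries, a log2 difference of 0.30 (edgeR adjusted p = 0.692). Whether the authors counted by strand is not given in the sources used here.

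Doc2g belongs to the Doc2 family of C2 domain proteins, whose relatives act in calcium-triggered exocytosis. It lies at chr19:4003313-4007005 on the plus strand (ENSMUSG00000024871.11), and 1926 of its 3035 exonic bases (63.5%) also belong to Gm49405, a gene model on the same strand, so its count depends on how shared reads were assigned. Doc2g had 0 counts in all 3 WT libraries. It had 18, 44 and 14 counts in Hdac2 ECKO (0.681, 1.43 and 0.485 CPM), 24, 8 and 45 in the Ezh2-labelled libraries (0.778, 0.315 and 1.62 CPM), and 14, 8 and 32 in beta-catenin GOF (0.477, 0.211 and 0.929 CPM). The 3 mutant groups overlapped fully and none overlapped WT. Against a floor of 3 counts per library the level was at least 8.85-fold higher in the Ezh2-labelled libraries than in WT. Gm49405 itself was 6.7, 7.12 and 6.98 CPM in WT and 4.37, 8.5 and 7.57 in the Ezh2-labelled libraries, so it overlapped between these groups. Gm49405 also overlaps Nudt8 on the same strand, and their counts were close in WT (193, 225 and 196 against 200, 243 and 214). Gm49405 minus Nudt8 was -7, -18 and -18 counts in WT and 19, -9 and 43 in the Ezh2-labelled libraries. It was 6, 19 and 9 in Hdac2 ECKO and 8, -8 and 4 in beta-catenin GOF. The Gm49405 level thus cannot show whether reads in the exons shared with Doc2g changed.

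Ttf2 encodes an ATPase of the SNF2 family that releases RNA polymerase II and its transcript from the template. It is the longest member, with 7672 exonic bases, at chr3:100938860-100969663 on the minus strand (ENSMUSG00000033222.16). The level was 1.32, 0.506 and 1.64 CPM in WT, 4.83, 8.34 and 5.38 in the Ezh2-labelled libraries, 7.64, 5.02 and 5.06 in Hdac2 ECKO, and 1.84, 5.17 and 3.72 in beta-catenin GOF. Every mutant library exceeded every WT library, and beta-catenin GOF 2 fell inside the range of the other mutants. The fitted log2 difference of the Ezh2-labelled group from WT was 2.42.

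In Hdac2 ECKO, 3 members rose against WT (Npw, Doc2g and Ttf2) and 1 fell (Arf5), while Gdpd3 and Ntf3 did not pass the test. The 4 of 6 called compares with 9.2% of all genes tested (480 higher, 3.82%, and 677 lower, 5.38%), and 4 of 6 did not overlap with WT, against 37.8% of all genes. The same WT libraries had a part in choosing the members, so this comparison is not independent of the choice. The median log2 difference was 1.83 over the members and 0.097 over all genes tested. Npw rose by 6.35 on the log2 scale (SE 0.91, 95% interval 4.41 to 8.29, edgeR adjusted p = 0.032), the smallest p of all genes in this contrast. Ttf2 rose by 2.36 (SE 0.54, 1.21 to 3.5, edgeR adjusted p = 0.0338), and Doc2g was at least 8.51-fold higher than in WT (edgeR adjusted p = 0.0338). Arf5 fell from 90.7 ± 24.8 to 19.2 ± 10.1 CPM, a log2 difference of -2.24 (SE 0.57, -3.45 to -1.03, edgeR adjusted p = 0.036). Gdpd3 averaged 4.71 ± 2.4 CPM against 1.9 ± 1.27 in WT, a log2 difference of 1.31 (0.09 to 2.53, edgeR adjusted p = 0.129). It was called without the filter on mean counts and by limma voom with quality weights. Ntf3 averaged 1.01 ± 0.468 against 2.53 ± 1.95 CPM (log2 difference -1.31, -3.54 to 0.91, edgeR adjusted p = 0.396).

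These 4 calls rest on few libraries. Without WT 1, WT 2 or Hdac2 ECKO 3 no member and no gene of the table passed (2795 to 3194 genes had an unadjusted edgeR p under 0.05), with edgeR adjusted p between 0.0913 and 0.13 for Npw and between 0.1 and 0.13 for Ttf2. Doc2g then had 0.0984 to 0.13 and Arf5 0.101 to 0.141 (edgeR adjusted p). Without Hdac2 ECKO 1 only Npw passed, with 3 genes called in all, while Doc2g, Ttf2 and Arf5 had edgeR adjusted p = 0.155, 0.16 and 0.163. Without WT 3 or Hdac2 ECKO 2 all 4 passed, and the count over all genes was 1872 or 2216 in place of 1157. The log2 differences of Ttf2 and Arf5 stayed between 2 and 2.69 and between -2.77 and -1.94 in these 6 fits. For Npw, WT 3 held the only WT counts (10), and without that library the Hdac2 ECKO level was at least 98.2-fold above WT.

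**Figure D2:**
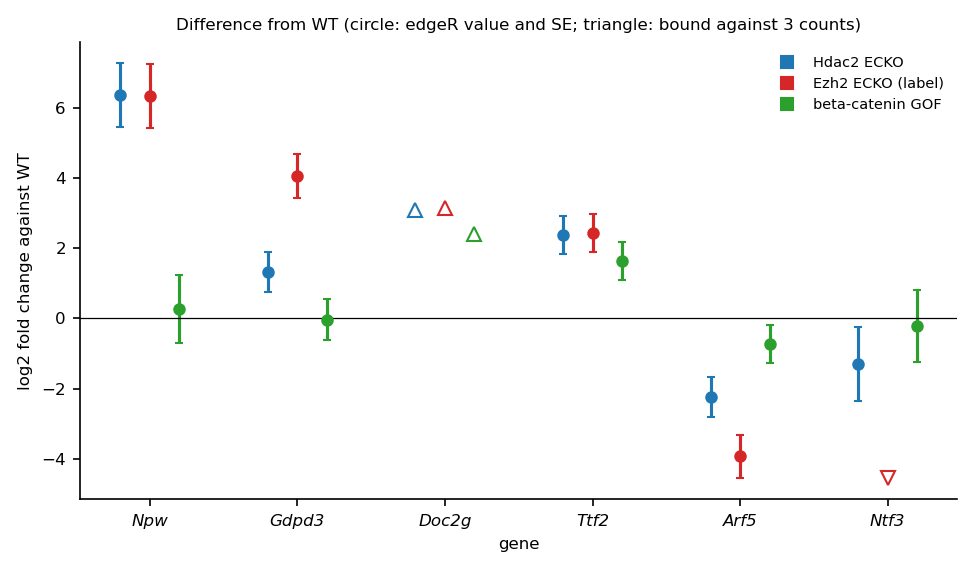
Log2 fold change of each member (vertical axis) for Hdac2 ECKO, the Ezh2-labelled group and beta-catenin GOF, each against the same WT libraries, with circles and bars for the edgeR value and its SE. Triangles are bounds against 3 counts for Doc2g and Ntf3 where a group was at 0, and Npw stands above 6 in Hdac2 ECKO and the Ezh2-labelled group and near 0 in beta-catenin GOF.

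In beta-catenin GOF none of the 6 members passed the test against WT, and neither did any of the 12577 genes (0%), although 763 genes (6.07%) had an unadjusted edgeR p under 0.05. DESeq2 called 44 genes in this contrast, limma 7, and limma voom with quality weights 26. Doc2g and Ttf2 did not overlap with WT, 2 of 6 against 12.7% of all genes. Doc2g was at least 5.29-fold higher than in WT (edgeR adjusted p = 0.404, unadjusted 0.000887), and DESeq2 called it. Ttf2 stood at 3.58 ± 1.67 CPM against 1.15 ± 0.583 in WT, a log2 difference of 1.63 (0.51 to 2.76, edgeR adjusted p = 0.658, unadjusted 0.00723). The other 4 had intervals that included 0 and were wide: -1.77 to 2.31 for Npw, -1.26 to 1.18 for Gdpd3, -1.89 to 0.42 for Arf5 and -2.4 to 1.95 for Ntf3. The interval of Npw leaves out a change of the size seen for it in Hdac2 ECKO, but the WT level rests on the 10 counts of WT 3. Without that library WT was at 0 and the fitted log2 difference of Npw was 5.12 (SE 1.29). The WT libraries again took part in the choice.

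The contrast of beta-catenin GOF with Hdac2 ECKO compares 2 groups of which no library took part in choosing the members. Its filter, scaling and spread were still taken over all 12 libraries, so its p-values are not fully independent of the choice. Npw also passed with the spread fitted on these 2 groups alone. Npw was 67.9-fold lower in beta-catenin GOF, at 0.142 ± 0.0544 CPM against 9.77 ± 4.43, a log2 difference of -6.09 (SE 0.89, -7.97 to -4.2, edgeR adjusted p = 0.0328). It had the smallest p of all genes, and it was 1 of 9 genes called (0.0716% of those tested), 3 of them lower (0.0239%). Npw passed without Hdac2 ECKO 1 or 2 (edgeR adjusted p = 0.0455 and 0.0304) and missed the threshold without Hdac2 ECKO 3 (0.111) or without beta-catenin GOF 1, 2 or 3 (0.127, 0.124 and 0.15), with a log2 difference from -6.41 to -5.66. Without Hdac2 ECKO 2 the count over all genes was 538. The groups also did not overlap for Gdpd3 and Arf5, which makes 3 of 6 members against 32% of all genes. Gdpd3 differed by -1.35 on the log2 scale (-2.57 to -0.13, edgeR adjusted p = 0.208) and Arf5 by 1.51 (0.32 to 2.69, edgeR adjusted p = 0.17), and neither passed. Differences for Doc2g (-0.68, -2.92 to 1.55), Ttf2 (-0.72, -1.8 to 0.36) and Ntf3 (1.09, -1.12 to 3.3) had intervals that included 0. The median over the members was -0.7, against -0.072 over all genes.

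Between Hdac2 ECKO and the Ezh2-labelled group no member passed the test, and 3 genes of the table did (0.0239%), with 1030 genes at an unadjusted edgeR p under 0.05. Npw differed by 0.01 on the log2 scale (-1.42 to 1.45), Ttf2 by -0.07 (-1.14 to 1.01) and Doc2g by -0.06 (-2.28 to 2.16). These intervals leave room for differences of more than 2-fold, so like means are not shown to be equal levels. Gdpd3 differed most clearly, at 4.71 ± 2.4 in Hdac2 ECKO against 31.4 ± 24.8, with no overlap and a log2 difference of -2.74 (-3.98 to -1.49, edgeR adjusted p = 0.192, unadjusted 0.000275). DESeq2 and limma voom with quality weights called Gdpd3, and DESeq2 also called Ntf3. Ntf3 was at least 9.42-fold higher in Hdac2 ECKO (edgeR adjusted p = 0.23) and also did not overlap, which makes 2 of 6 members against 13.2% of all genes. Arf5 was 1.69 higher on the log2 scale in Hdac2 ECKO (0.49 to 2.89, edgeR adjusted p = 0.517), with overlapping groups. The Ezh2-labelled libraries had a part in choosing the members, so these values are not independent of the choice.

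Beta-catenin GOF against the Ezh2-labelled group gave 2 of 6 members called, against 0.0636% of all genes (0.0398% lower), and 4 of 6 without overlap, against 16.7%. Npw (log2 difference -6.07, edgeR adjusted p = 0.0128) and Gdpd3 (-4.09, edgeR adjusted p = 0.0146) were lower in beta-catenin GOF. Arf5 was 54.5 ± 17.8 CPM against 5.97 ± 6.08 (log2 difference 3.2, 1.93 to 4.46, edgeR adjusted p = 0.0683), and it passed with the replicate block and in 6 of the other alternatives. The mean of Ntf3 was at least 20.2-fold higher in beta-catenin GOF (edgeR adjusted p = 0.111). That mean rests mostly on beta-catenin GOF 1, at 5.52 CPM against 0.58 and 0.406 in the others, so the bound does not hold for each library. Doc2g and Ttf2 differed by -0.74 and -0.79 on the log2 scale, with edgeR adjusted p = 0.777 and 0.497. Both calls were lost without Ezh2-labelled library 1 and without each of the 3 beta-catenin GOF libraries, where edgeR adjusted p reached 0.0986 for Npw and 0.144 for Gdpd3. They held without Ezh2-labelled library 2, where 732 genes were called in all, and without library 3.

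Across the 4 groups the members thus took several patterns. Npw, Doc2g, Ttf2 and Arf5 stood at overlapping levels in Hdac2 ECKO and in the Ezh2-labelled group, apart from WT in both. In the order of group means, the only neighbouring pair without overlap was the Ezh2-labelled group above beta-catenin GOF for Npw, the Ezh2-labelled group above Hdac2 ECKO for Gdpd3, and beta-catenin GOF above WT for Doc2g and Ttf2. It was beta-catenin GOF above Hdac2 ECKO for Arf5, and Hdac2 ECKO above the Ezh2-labelled group for Ntf3. Over the 12 libraries, Pearson's r of log2(CPM + 1) between members ran from -0.84 (Npw with Arf5) to 0.76 (Npw with Ttf2). It was -0.75 for Ttf2 with Ntf3 and 0.62 for Arf5 with Ntf3. These values describe libraries that share the group differences used in the choice.

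Markers of other cell types also differed between the groups. The platelet and erythroid genes, highest in every WT library, had median log2 differences from WT of -2.38 in Hdac2 ECKO, -3.29 in the Ezh2-labelled group and -0.83 in beta-catenin GOF, and 0 of 7 passed the test in each. Of 12 pericyte and smooth muscle genes, 10 were tested and 4 rose in Hdac2 ECKO, against 3.82% of all genes (medians 1.96 and 0.097). Their sum was 67.7 to 124 CPM in WT, 131 to 324 in Hdac2 ECKO, 58.1 to 76.5 in the Ezh2-labelled group and 122 to 384 in beta-catenin GOF, with Cnn1 at 0 in WT. The 6 astrocyte genes summed to 24 to 35.7 CPM in WT, 50.6 to 76 in Hdac2 ECKO, 44.1 to 79.7 in the Ezh2-labelled group and 36.7 to 54.1 in beta-catenin GOF, with 4 tested, none called and Aqp4 at 0 in beta-catenin GOF. The 7 microglia and macrophage genes summed to 69.2 to 92.1 CPM in WT and, with no overlap, to 39.2 to 59.8 in Hdac2 ECKO. Of all single genes tested, 37.8% did not overlap in that contrast. Tmem119 was at 0 in Hdac2 ECKO, and 2 of the 7 microglia and macrophage genes were tested and none called. Their sum was 52 to 84.1 CPM in the Ezh2-labelled group and 58.1 to 83.5 in beta-catenin GOF, where Cx3cr1, Tmem119, Aif1 and Mrc1 were at 0. The 6 oligodendrocyte genes had overlapping sums, at 2.6 to 65.7 CPM in WT and 2.11 to 29.5 in the mutants. The 5 leukocyte genes summed to at most 14.5 CPM in any library, the 5 fibroblast genes to at most 4.71 and the 7 neuron genes to at most 3.74. The part of these markers in the members' differences was not tested. Fold changes also followed transcript length: across 12577 genes, which are not independent replicates, Spearman's rho of log2 difference with exonic length was 0.44 in Hdac2 ECKO, 0.29 in the Ezh2-labelled group and 0.14 in beta-catenin GOF, each against WT. The higher members Npw, Gdpd3 and Doc2g stood at length percentiles 1.03, 16.8 and 29.4, and Ttf2 is long (80.1). The lower members Arf5 and Ntf3 are short as well (13 and 10.6), on the side where this trend runs toward lower levels. With the length trend removed, Npw (log2 difference 6.58), Doc2g and Arf5 (-1.75) still passed in Hdac2 ECKO, and Ttf2 (1.88, edgeR adjusted p = 0.0577) did not.

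Arf5 had relatives that fell with it in Hdac2 ECKO. All 8 genes of a list of ARF GTPases were tested. In Hdac2 ECKO 5 of them were lower than WT and none higher, and 5.38% of all genes were called lower. Their median log2 difference was -1, against 0.097 over all genes. The 5 and the median include Arf5 itself, which was picked on the same WT libraries. Arf4 fell from 387 ± 86.4 to 183 ± 22.7 CPM (edgeR adjusted p = 0.0338), Arf1 from 251 ± 72.9 to 118 ± 24.6 (0.0388) and Arf2 from 80.6 ± 26.5 to 34.6 ± 6.16 (0.0338). Arl1, a relative that acts at the trans-Golgi, fell from 281 ± 65.8 to 147 ± 19.4 CPM (edgeR adjusted p = 0.0429). Arf5 itself had the largest log2 difference of the 8 in this contrast and in the Ezh2-labelled libraries, where it was the only one called (median -0.68). In beta-catenin GOF none was called (median -0.46). Arf3 had a log2 difference of 0.56, Arfrp1 -0.53 and Arf6 -0.65 in Hdac2 ECKO, and none of these passed. The 5 calls each held in 2 of 6 fits that left out a library, and Arf1 and Arl1 missed the threshold with library totals in place of TMM scaling and with the length trend removed, where their log2 differences were -0.55 and -0.44.

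**Figure D3:**
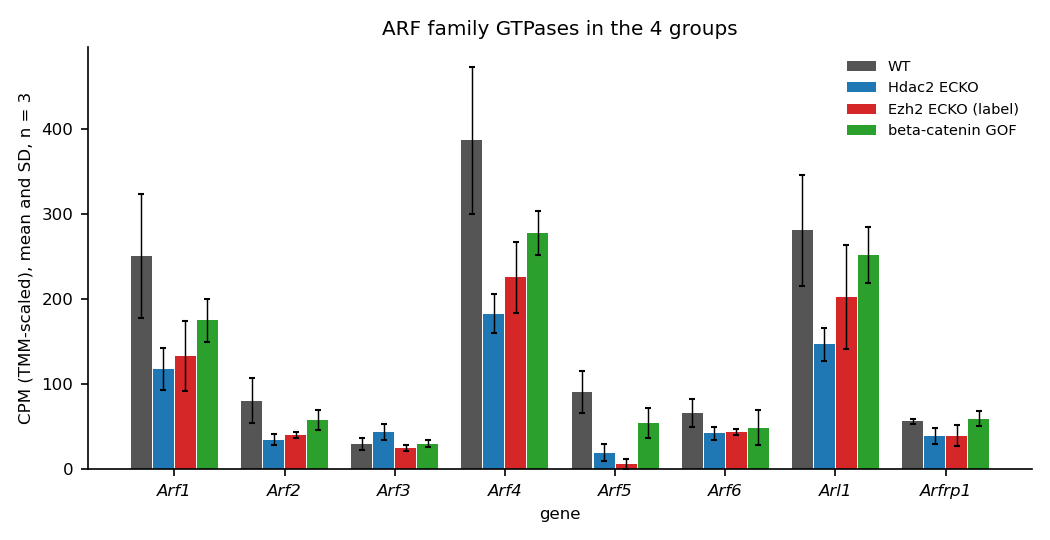
Mean CPM (vertical axis, bars from 0) of the 8 ARF GTPases in WT, Hdac2 ECKO, the Ezh2-labelled group and beta-catenin GOF, with error bars for the SD of 3 libraries. Arf5 drops from 90.7 in WT to 19.2 in Hdac2 ECKO and 5.97 in the Ezh2-labelled group, and Arf1, Arf2, Arf4 and Arl1 are also lower in Hdac2 ECKO than in WT.

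Of 38 partners of ARF proteins, which exchange their nucleotide or activate their GTPase, 31 were tested, and 2 rose in Hdac2 ECKO, where 3.82% of all genes did: Psd3, an exchange factor, from 18 ± 2.15 to 54.3 ± 18.2 CPM, and Agap1, a GTPase activator, from 10 ± 3.27 to 22.2 ± 0.929 CPM (edgeR adjusted p = 0.034 and 0.0434). With the length trend removed neither passed, at log2 differences of 0.61 and 0.25. None was called in the other mutants. Of the 9 subunits of the COPI coat, which ARF proteins recruit, Copz1 fell in Hdac2 ECKO from 138 ± 56.9 to 42.8 ± 18.3 CPM (edgeR adjusted p = 0.0323), against 5.38% of all genes called lower, and none was called in the other mutants.

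For the remaining members, relatives changed in few cases. Of 21 glycerophosphodiesterases, N-acylethanolamine enzymes and lysophospholipid enzymes and receptors, 15 were tested. Abhd4, an enzyme that acts on N-acylated phospholipids ahead of the glycerophosphodiesterases, fell from 37.7 ± 15.8 CPM in WT to 12.3 ± 1.78 in Hdac2 ECKO and 10.8 ± 5.51 in the Ezh2-labelled group (edgeR adjusted p = 0.036 and 0.0478). In Hdac2 ECKO it was the only call of the list, and in the Ezh2-labelled group the list's other call was Gdpd3. Of all genes, 5.38% were called lower in Hdac2 ECKO and 0.684% in the Ezh2-labelled group. Gde1, another member of the Gdpd3 family, had 91.9 ± 15.8 CPM in WT, 39.4 ± 24.4 in Hdac2 ECKO and 52.4 ± 28.4 in the Ezh2-labelled group and was not called. Of 25 C2 domain exocytosis genes 12 were tested, and Doc2g was the only one called, in both Hdac2 ECKO and the Ezh2-labelled group. Its relatives Doc2a and Doc2b differ in level: Doc2a had 9.06 ± 1.77 CPM in WT and Doc2b at most 18 counts in any library. Of 17 genes of transcription termination and of the SNF2 family, all tested, Ttf2 and Hltf rose in Hdac2 ECKO, against 3.82% of all genes. Hltf, a relative of Ttf2 in the SNF2 family that acts at stalled replication forks, went from 26.4 ± 5.63 to 64.3 ± 15.6 CPM (edgeR adjusted p = 0.0338). Ttf2 was the only gene of this list called in the Ezh2-labelled group. Of 28 peptide ligands and receptors 7 were tested, and Npw was the only one called in either Hdac2 ECKO or the Ezh2-labelled group. Gdpd3, Doc2g, Ttf2 and Npw were picked on the same WT libraries, so their own calls in these lists are not independent of the choice. In beta-catenin GOF no gene of these lists was called against WT. The calls of Psd3, Agap1, Copz1, Abhd4 and Hltf each held in 2 of 6 fits that left out a library.

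Within 50 kb of Npw, 7 of 8 neighbours were tested and Zfp598, an E3 ubiquitin ligase that senses collided ribosomes, rose in Hdac2 ECKO, where 3.82% of all genes did. It lies 11230 bases away and was 4.37, 6.33 and 7.9 CPM in WT, 19.1, 11.3 and 19.9 in the Ezh2-labelled libraries, 16.1, 12.7 and 23.5 in Hdac2 ECKO, and 8.66, 7.86 and 7.08 in beta-catenin GOF. Its log2 difference from WT was 1.49 in Hdac2 ECKO (edgeR adjusted p = 0.0338) and 1.43 in the Ezh2-labelled group (edgeR adjusted p = 0.0547). Zfp598 was thus higher in the same 6 libraries as Npw, without overlap with the 6 others. Such separation is common here: 37.8% of all genes did not overlap between Hdac2 ECKO and WT, and 21.9% between the Ezh2-labelled group and WT. Against beta-catenin GOF the shares were 32% and 16.7%. The share of genes with the joint pattern was not counted, and a link between Zfp598 and Npw was not tested. Slc9a3r2, 7003 bases away on the other side and a scaffold for membrane transporters, differed by -1.24 and -1.11 (edgeR adjusted p = 0.0717 and 0.138).

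All 6 genes within 50 kb of Gdpd3 were tested, and 3 fell in Hdac2 ECKO, where 5.38% of all genes did. Mapk3, the gene of the kinase ERK1, ends 515 bases from Gdpd3 and had a log2 difference of -1.42 (edgeR adjusted p = 0.0355). Ppp4c, a protein phosphatase subunit, differed by -1.49 and Fam57b, a membrane protein gene of sphingolipid metabolism, by -2.3 (edgeR adjusted p = 0.0484 and 0.0381). In the Ezh2-labelled libraries, where Gdpd3 was highest, the log2 differences from WT were -1.28 for Mapk3, -2.02 for Fam57b and -1.06 for Ppp4c, and none passed (edgeR adjusted p = 0.0699, 0.0777 and 0.155). Aldoa and Ypel3 stood at -1.48 and -1.11 there and at -1.48 and -1.16 in Hdac2 ECKO, and did not pass in either group. Tbx6, a T-box transcription factor gene 5834 bases away, had 60, 2 and 28 counts there against 0, 0 and 10 in WT (log2 difference 3.06, edgeR adjusted p = 0.293). The library with the highest Gdpd3 level, Ezh2-labelled library 2, was the one with 2 counts of Tbx6.

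Among the 6 tested of 9 neighbours of Doc2g, Ndufv1, a subunit of respiratory complex I, fell in Hdac2 ECKO (log2 difference -1.63, edgeR adjusted p = 0.0401) and lies 379 bases away. In that contrast with WT 5.38% of all genes were called lower. Ttf2 had 1 tested neighbour of 3, Trim45, with a log2 difference of 2.18 in Hdac2 ECKO (edgeR adjusted p = 0.234) and -0.47 in the Ezh2-labelled group. None of the 3 tested neighbours of Arf5 was called in any contrast, where from 0% to 9.2% of all genes were called. So few genes would seldom give a call at these shares. The table has no gene within 50 kb of Ntf3. The calls of Zfp598, Fam57b, Mapk3 and Ndufv1 held in 2 of 6 fits with a library left out, and that of Ppp4c in 1. With the length trend removed Mapk3 (-0.92), Ppp4c (-1.55) and Ndufv1 (-1.25) missed the threshold.

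**Figure D4:**
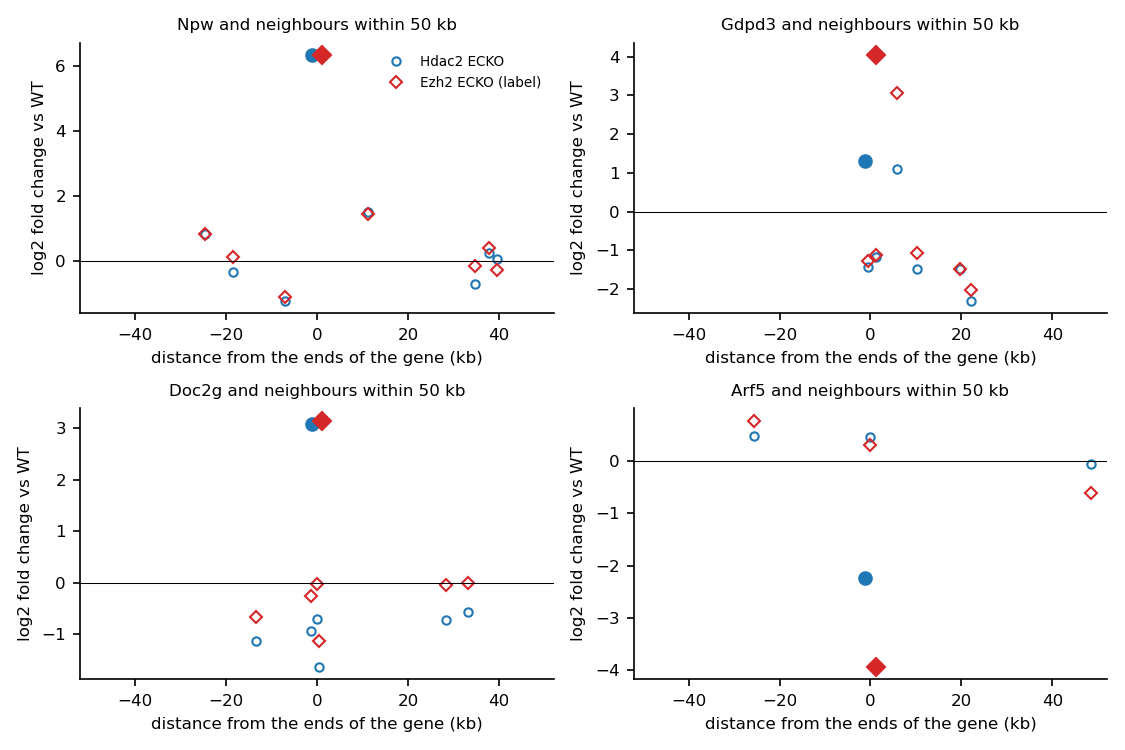
Log2 fold change against WT (vertical axis) of Npw, Gdpd3, Doc2g and Arf5 (filled symbols, placed side by side at distance 0, Doc2g as a bound) and of the tested genes within 50 kb (open symbols) by distance from the member in kb, for Hdac2 ECKO (circles) and the Ezh2-labelled group (diamonds). Npw, at 6.35 and 6.34, stands far above its neighbours, of which Zfp598 is highest at 1.49 and 1.43, and Arf5 stands below its own.

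The genes whose levels ran most like each member were named by Pearson's r of log2(CPM + 1) over the 12 libraries, as a description. For Npw these were Senp2 (0.939), Inpp5f (0.936) and Dynlt1a (0.934). Dynlt1a, a dynein light chain gene also on chromosome 17, averaged 154 CPM in WT and 183 in beta-catenin GOF against 444 in Hdac2 ECKO and 392 in the Ezh2-labelled group. For Gdpd3 they were Psmg2 (0.926), Ifi202b (0.906) and Cfap97d1 (0.903). Ifi202b, an interferon-inducible gene of chromosome 1, averaged 16.2 in the Ezh2-labelled group and at most 0.0932 in the others. For Arf5 they were Grb2 (0.956), Cd82 (0.95) and Dera (0.945), and Cd82, a tetraspanin, averaged 9.14 CPM in WT, 5.9 in beta-catenin GOF, 2.49 in Hdac2 ECKO and 1.18 in the Ezh2-labelled group. Xpot, which exports tRNA from the nucleus, was nearest to Ttf2 (0.962), Heatr6 to Doc2g (0.922) and Fbxw17 to Ntf3 (0.896). All 18 such genes were selected as the highest of 12577, and the libraries share the group differences.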

How the data were processed

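The authors deposited 1 table of counts for 21638 genes in 12 libraries. Its title calls the values normalized, but they are whole numbers whose totals differ between libraries, and 79.5% to 84% of the values from 10 to 50 are even, so they were taken as counts of both mates of read pairs. The submitters' processing notes name FastQC, cutadapt, STAR, featureCounts, DESeq2 and mm10, while their settings, the annotation and strand use are not given in the sources used here. Per the labels' protocols, cDNA of the sorted cells was amplified with the SMART-Seq v4 PLUS kit for low input and sequenced as pairs on a NovaSeq X Plus. Table lengths equalled GENCODE M21 exonic lengths for 6 of 6 members.

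Genes averaging 10 or more counts per library were fitted in 1 model over all libraries with edgeR 4.0.16 (R 4.3.3; TMM scaling, quasi-likelihood F test, Benjamini-Hochberg adjustment over 12577 genes, threshold 0.05), which was tested on simulated data. Values are mean ± SD of CPM, intervals are 95%, and a group with at most 3 counts in every library is compared through that floor, which covers counting error only. Such a bound uses the mean of the other group and leaves out the spread of its libraries. No 2 libraries of a group agreed within sampling noise (lowest chi-square per degree of freedom 65.2). Alternatives were median-ratio scaling, library totals, no filter, a filter at a mean of 50, a replicate block, removal of the length trend, DESeq2 1.42.0, limma 3.58.1 on log2(CPM + 1), limma voom with quality weights, fits of 2 groups, and leaving out each library.

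The members and lists were chosen with earlier results of these data known. Named beside the members were the targeted genes, neighbours within 50 kb that overlap, are nearest or pass the threshold, the 3 genes most like each member, and called genes of the lists. Same-numbered libraries deviated together in every pair (r = 0.19, 0.43 and 0.13) for Hdac2 ECKO with the Ezh2-labelled group. For beta-catenin GOF with the Ezh2-labelled group r was also positive in every pair but near 0 (0.02, 0.01 and 0.05). For Hdac2 ECKO with the Ezh2-labelled group the numbers were treated as a possible pairing, a hint from the data and not from the labels. Libraries with different numbers were not compared, so these values cannot show that the libraries are paired. The values given above for that contrast come from the fit without a block, and the replicate block was applied to all 4 groups.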

Additional observations from a re-analysis of the deposited data

How the results depend on the processing

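With 3 libraries a group the number of calls moved strongly with the method, and the cause was not tested. For Hdac2 ECKO against WT (1157 genes) it was 1826 with library totals, 2279 with no filter, 1832 with the replicate block, 640 with the length trend removed, 2609 with DESeq2 and 5374 with voom weights. For the Ezh2-labelled group against WT (129) it was 76 with median-ratio scaling, 30 with library totals, 1367 with no filter, 219 at a mean count of at least 50, 536 with the replicate block, 1364 with DESeq2, 348 with limma, 3743 with voom weights and 17 with 2 groups only. For beta-catenin GOF against WT (0) it was 157 with no filter, 44 with DESeq2, 7 with limma and 26 with voom weights. For beta-catenin GOF against Hdac2 ECKO (9) it was 4 with library totals, 978 with no filter, 1 with the length trend removed, 448 with DESeq2 and 3339 with voom weights, and against the Ezh2-labelled group (8) 14, 359, 14, 195 and 1466 in that order, 13 with the replicate block and 17 with limma. For Hdac2 ECKO against the Ezh2-labelled group (3) it was 199 with no filter, 121 with DESeq2 and 11 with limma or voom weights.

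Calls among the 6 members also moved. For Hdac2 ECKO against WT (4) no filter and voom weights gave 5 each, adding Gdpd3. A mean count of at least 50 and limma gave 3 each, without Doc2g, and removal of the length trend 3, without Ttf2. No filter gave 1 for beta-catenin GOF against WT (Doc2g), 3 for beta-catenin GOF against Hdac2 ECKO, 3 for Hdac2 ECKO against the Ezh2-labelled group and 4 for beta-catenin GOF against that group. DESeq2 gave 1 for beta-catenin GOF against WT, 2 for Hdac2 ECKO and 4 for beta-catenin GOF against the Ezh2-labelled group, and no adjusted p for Npw in beta-catenin GOF against Hdac2 ECKO. Voom weights gave 2 in that last contrast and 1 for Hdac2 ECKO against the Ezh2-labelled group, and for the Ezh2-labelled group against WT (6) the fit of 2 groups gave 3, median-ratio scaling, library totals, a mean count of at least 50 and limma 4 each, and removal of the length trend 5. The replicate block changed no member's call other than Arf5 in beta-catenin GOF against the Ezh2-labelled group. For Hdac2 ECKO against the Ezh2-labelled group, the possible pairing, it called 3 genes and 0 members. In the other 5 contrasts r between same-numbered libraries ran from -0.25 to 0.21.

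Leaving out 1 library gave 0 to 2216 genes and 0 to 4 members for Hdac2 ECKO against WT, 0 to 4 genes and 0 members for beta-catenin GOF against WT, and 0 to 538 genes and 0 to 1 member for beta-catenin GOF against Hdac2 ECKO. It gave 2 to 2329 genes and 0 to 6 members for the Ezh2-labelled group against WT, 1 to 3 genes and 0 members for Hdac2 ECKO against that group, and 1 to 732 genes and 0 to 4 members for beta-catenin GOF against it.

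Of the calls in Hdac2 ECKO against WT, library totals gave 1469 higher and 357 lower and moved the median of all genes from 0.097 to 0.34, and removal of the length trend gave 149 and 491. For the Ezh2-labelled group against WT library totals gave 17 and 13 in place of 43 and 86, removal of the length trend 62 and 62, DESeq2 666 and 698, and voom weights 1850 and 1893. Of 847 log2 differences under alternatives 656 kept their direction and side of the threshold, 134 lost and 25 gained a call, and 32 changed sign, none of them called. In beta-catenin GOF against WT, Gdpd3 became 0.03 with library totals, 0.06 with the length trend removed or limma and 0.68 with voom weights. Leaving out libraries gave it -0.42 to 0.61, Npw -0.33 to 5.12 (the latter without WT 3, where WT is at 0), Ntf3 -2.35 to 0.58 and Ctnnb1 -0.31 to 0.02. In beta-catenin GOF against Hdac2 ECKO, Ntf3 became -0.35 with voom weights and -1.03 to 1.58 without a library. In Hdac2 ECKO against the Ezh2-labelled group, Npw became -0.04 with median-ratio scaling or DESeq2, -0.18 with the replicate block, -0.06 with limma and -0.4 to 0.24 without a library. Doc2g became 0.12 with library totals, 0.28 with the replicate block and -0.66 to 0.65 without a library, and Ttf2 0.19 with library totals, 0.04 with voom weights and -0.29 to 0.21 without a library. Depth limits Doc2g in WT and Ntf3 in the Ezh2-labelled group, both at 0 counts, and Npw, at 0 counts in WT 1 and 2 and 4 to 6 in beta-catenin GOF.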
